A study of Homo sapiens with 24 samples.

Results

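The MYC, MAX and MXD network was described by 10 listed genes, MYC, MYCN, MAX, MXI1, MXD1, MXD3, MXD4, MNT, MGA and MLX. Each gene was read from all of its probe sets that carry a single gene symbol, with the probe set brightest over the 24 arrays as its main value. Of the 10 genes, 9 were measured in this way, with 33 of the 54613 probe sets on the array, among 19775 genes in all. MXD4, whose 3 probe sets each carry several symbols, is not analysed here.

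The cells were KARPAS-422, an established human lymphoma line (diffuse large B-cell lymphoma, DLBCL) that carries, by its label, the genotype EZH2 Y641N. All arrays therefore share 1 cell line and that EZH2 genotype. Cells received the vehicle DMSO or an EZH2 inhibitor at 5 uM, and total RNA was taken at day 1, 2, 3 or 6, with 3 biological replicates in each of the 8 groups. The labels do not say whether the replicates were separate cultures, so p-values measure the spread between these samples, and the number of arrays limits the precision. EZH2 is the enzyme with which the Polycomb complex PRC2 methylates histone H3 to silence genes. The inhibitor acts on the enzyme's activity, so its transcript does not check the labels. EZH2 mRNA differed by 0.05, -0.09 and -0.29 (log2) at days 1, 2 and 3, none of them called, and fell by 0.64 ± 0.12 at day 6 (adjusted p = 8.9e-05).

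MYC and MYCN are basic helix-loop-helix leucine zipper transcription factors that bind DNA as pairs with MAX. The preferred site is the E-box CACGTG, and the genes they activate serve ribosome production, nucleotide synthesis, energy metabolism and the cell cycle. MXI1, MXD1, MXD3, MXD4 and MNT also pair with MAX but recruit the SIN3-HDAC corepressor to the same sites, and MGA carries MAX into a variant Polycomb complex, PRC1.6. MLX is the MAX-like partner of the MONDO proteins MLXIP and MLXIPL, which respond to glucose. In B cells MYC is switched on in cells selected in the germinal centre, and its deregulation is a known feature of aggressive lymphoma.

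The site that these pairs share was looked for in RefSeq promoter windows of 300 bases (GRCh38.p14, 250 before to 50 after each annotated start). The letters CACGTG read the same on both strands, so a single search covers both. Windows were matched for 9 of the 10 listed genes, all but MYC. Among the 8 of these that were measured, 2 held the motif, MNT and MLX, against 10.9% of the 15384 measured genes with a window and 7.26% of all 35116 windows. It was found in 27 of the 57 measured MYC-activated target genes that have a window (47.4%). The stretches below, each of 30 bases with the E-box in capitals, show the motif in both members and in the 4 motif-holding targets that fell furthest at day 6. ARRDC4, a target of the MONDO-MLX pair, is shown beside them. TXNIP, the other listed target of that pair, gave no stretch to print. A match is a description of the letters and does not show binding.
MNT: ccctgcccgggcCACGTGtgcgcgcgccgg
MLX: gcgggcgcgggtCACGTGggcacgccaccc
MCM7: agtggcgccggtCACGTGgggggcgacgtt
SLC19A1: ttcgcgcccaggCACGTGttgcttcgggac
MTHFD1: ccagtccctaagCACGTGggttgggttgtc
LYAR: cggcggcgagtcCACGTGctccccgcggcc
ARRDC4: aaacggcctgtgCACGTGcacgccggagcc
The MNT stretch lies at chr17:2401236-2401265 on the minus strand, with the motif starting 193 bases before the gene's start. The MLX stretch lies at chr17:42567038-42567067 on the plus strand, 50 bases before the start. The MCM7 stretch lies at chr7:100101405-100101434 (minus strand, 25 before), that of MTHFD1 at chr14:64388326-64388355 (plus strand, 15 before) and that of LYAR at chr4:4290068-4290097 (minus strand, 64 before). The SLC19A1 stretch, at chr21:45541797-45541826 on the minus strand, starts its motif 33 bases into the transcript. The ARRDC4 stretch lies at chr15:97960481-97960510 on the plus strand, 210 bases before the start. Bases around the motif differ between all 7.

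Over the time course MYC fell late and its antagonist MXI1 rose early and steadily, while MAX rose in its brightest probe set. At day 6 the main probe sets of 6 of the 9 measured genes were called: MXI1, MAX and MLX higher than DMSO, and MYC, MYCN and MXD1 lower. Of all genes 18.5% were called higher and 26.9% lower. With the mean of its probe sets MAX differed by -0.025. The calls of MLX, MXD1 and MYCN were lost in 5, 7 and 1 of 18 alternative settings. MXD3, MNT and MGA did not pass the test at any day in their main probe sets. All differences are inhibitor minus DMSO of the same day in log2 units, with the standard error of the fit (n = 3 arrays per group), and a gene was called when its limma p, adjusted over all 19775 genes, was under 0.05. Because the arrays were scaled to 1 distribution, a change in total RNA per cell is not visible, and fewer cells of a type cannot be told apart from less RNA per cell.

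These counts stand against broad backgrounds. At day 1 no member was called in the main fit (1, MXI1, at an unadjusted p under 0.05), where 0.475% of all genes were called higher and 0.0101% lower. At day 2 and again at day 3, 1 member was higher and none lower, MXI1 both times. Over all genes 3.57% were higher and 0.824% lower at day 2, and 8.64% and 7.65% at day 3. At an unadjusted p under 0.05, MXD1 was also lower at each of these days, and MXD3 was also higher at day 3. By that measure 1520 of all 19775 genes were higher and 1796 lower at day 2. At day 3, 2489 were higher and 3065 lower. At day 6, 3 of 9 members were higher and 3 lower, where 18.5% of all genes were higher and 26.9% lower, so the count of members is not far from the background, and the interest lies in which members moved and how early. The median of the 9 members was -0.01, -0.10, 0.00 and 0.03 at the 4 days, and that of all genes -0.01, -0.04, -0.04 and -0.11. The shift of all genes at day 6 was -0.09 after each array's median was subtracted and -0.10 after a further quantile normalization.

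**Figure D1:**
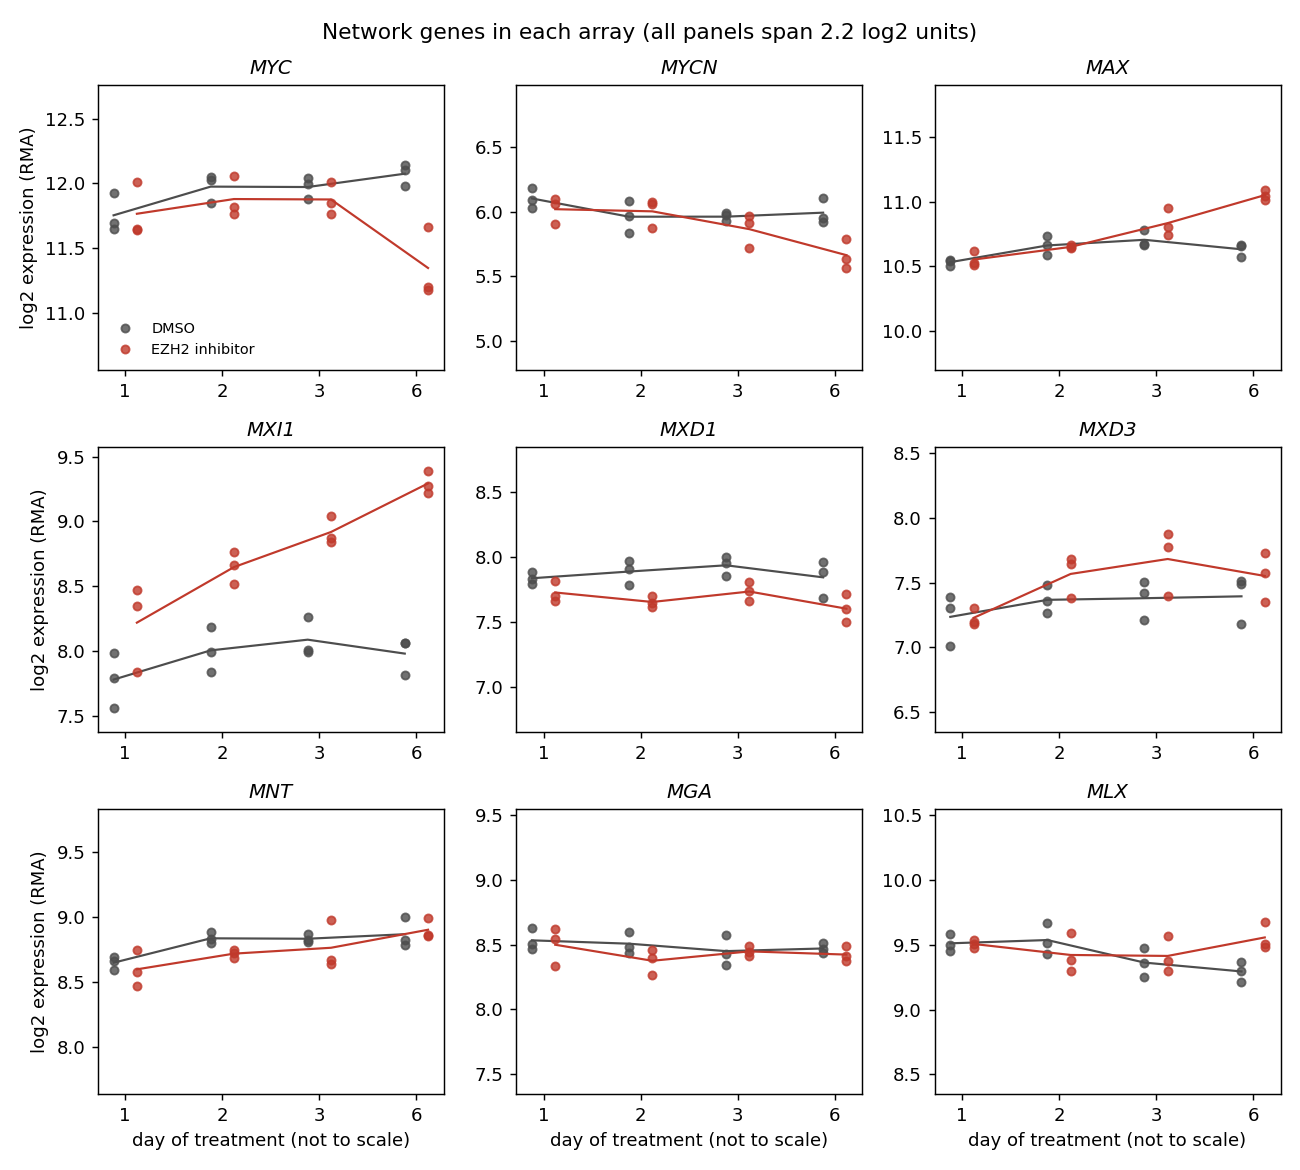
Log2 expression of the main probe set of each measured network gene (y axis, RMA values, every panel spanning 2.2 log2 units) against the day of treatment (x axis, days 1, 2, 3 and 6 evenly spaced). Points are single arrays, grey for DMSO and red for the EZH2 inhibitor, and lines join the group means. The MXI1 arrays of the 2 arms part from day 2 on, those of MYC at day 6.

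MYC, the network's main activator in lymphoma cells, has 1 probe set with a single symbol (202431_s_at). At day 1 its arrays read 11.65, 11.92 and 11.69 in DMSO and 11.64, 12.01 and 11.64 with the inhibitor. At day 2 they read 12.02, 12.05 and 11.85 in DMSO and 12.06, 11.76 and 11.82 with the inhibitor. At day 3 they read 12.04, 11.88 and 11.99 against 12.01, 11.77 and 11.85. The arms overlapped at each of these days, with differences of 0.01, -0.10 and -0.10 (95% confidence interval at day 3, -0.35 to 0.16).

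At day 6 MYC read 12.14, 11.98 and 12.10 in DMSO and 11.66, 11.18 and 11.20 with the inhibitor. All 3 treated arrays lay below all 3 control arrays, with replicate 1 of the treated arm the highest of its group. The group means were 12.07 ± 0.08 (SD, n = 3) and 11.35 ± 0.27, a fall of 0.73 ± 0.12 (1.66-fold lower, adjusted p = 5.0e-05). That call held in each of the 18 alternative settings tried. Ordered by mean, the 8 groups ran from 12.07 (DMSO, day 6) over 11.98 and 11.97 (DMSO, days 2 and 3), 11.88 and 11.88 (inhibitor, days 2 and 3), 11.77 (inhibitor, day 1) and 11.75 (DMSO, day 1) to 11.35 (inhibitor, day 6). Neighbours in that order overlapped, and the highest treated array of day 6, at 11.66, just reached the range of the day 1 groups.

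The fall of MYC was tested against time as well. Its inhibitor difference at day 6 minus that at day 1 was -0.74 ± 0.18 (adjusted p = 0.0028), and minus that at day 3 it was -0.63 (adjusted p = 0.020). For the first of these comparisons 12.3% of all genes were called higher and 14.4% lower, for the second 5.98% and 6.53%. Within the treated arm MYC fell by 0.42 from day 1 to day 6 (adjusted p = 0.0098), whereas the control arm read 0.32 more at day 6 than at day 1, which was not called (adjusted p = 0.44). The difference between the effects of days 6 and 1 was not called without the arrays numbered 3 (-0.68, adjusted p = 0.062), nor was the fall within the treated arm without those numbered 2 (-0.21, adjusted p = 0.28) or 3 (-0.41, adjusted p = 0.083).

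MYCN, the paralogue best known from neural tumours, had a mean of 5.95 over the 24 arrays in its brightest probe set. At day 6 it read 5.95, 6.10 and 5.92 in DMSO and 5.79, 5.57 and 5.63 with the inhibitor. The arms did not overlap, and the fall was 0.33 ± 0.09 (adjusted p = 0.0044). All 10 of its probe sets were below 0 at day 6, from -0.47 to -0.05, and 6 were called lower. Most are dim: the others averaged from 5.25 down to 2.47, and the lowest value on any array was 1.72. Called probe sets include those with means of 3.54, 3.42 and 3.11, so their shared direction is weak evidence. Among the genes of the same quintile as the brightest probe set (mean signal 5.14 to 6.75), the median difference at day 6 was -0.13 and 27.8% were called lower. At days 1, 2 and 3 the differences were -0.08, 0.04 and -0.10, none of them called. The day 6 call was lost without the arrays numbered 2 (-0.22, adjusted p = 0.14). RMA gives no call of detection, so whether MYCN mRNA was present at these levels was not tested.

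MAX is the partner that activators and repressors of the network share. In its brightest probe set (209332_s_at) the arrays of day 6 read 10.57, 10.66 and 10.66 in DMSO and 11.02, 11.04 and 11.09 with the inhibitor. The treated arrays all lay above the controls, and the rise was 0.42 ± 0.07 (1.34-fold, adjusted p = 1.9e-05). The differences at days 1, 2 and 3 were 0.02, -0.01 and 0.13, with overlapping arrays and no call. The effect at day 6 exceeded that at day 1 by 0.40 ± 0.09 (adjusted p = 0.0024) and that at day 3 by 0.29 (adjusted p = 0.046).

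The 5 probe sets of MAX did not move as 1. Probe set 214108_at read 7.37, 7.57 and 7.58 in DMSO at day 6 and 6.88, 6.56 and 6.85 with the inhibitor. That is a fall of 0.74 ± 0.09 (adjusted p over all probe sets = 1.7e-06), with no overlap between the arms, while the brightest probe set rose. The remaining 3 differed by 0.11, -0.08 and 0.17 and were not called. With the mean of all 5 probe sets in place of the brightest, the MAX difference at day 6 was -0.025 (adjusted p = 0.86). Which transcripts of MAX each probe set reads was not tested here. A direction for MAX therefore holds for a probe set, not for the gene. Of the 33 probe sets of all members, 15 were called at day 6, 4 higher and 11 lower, where 36.7% of all probe sets were called in either direction. At days 1, 2 and 3 that background was 0.190%, 2.26% and 10.3%, and the members had 0, 1 and 1 called, that of MXI1 both times.

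**Figure D2:**
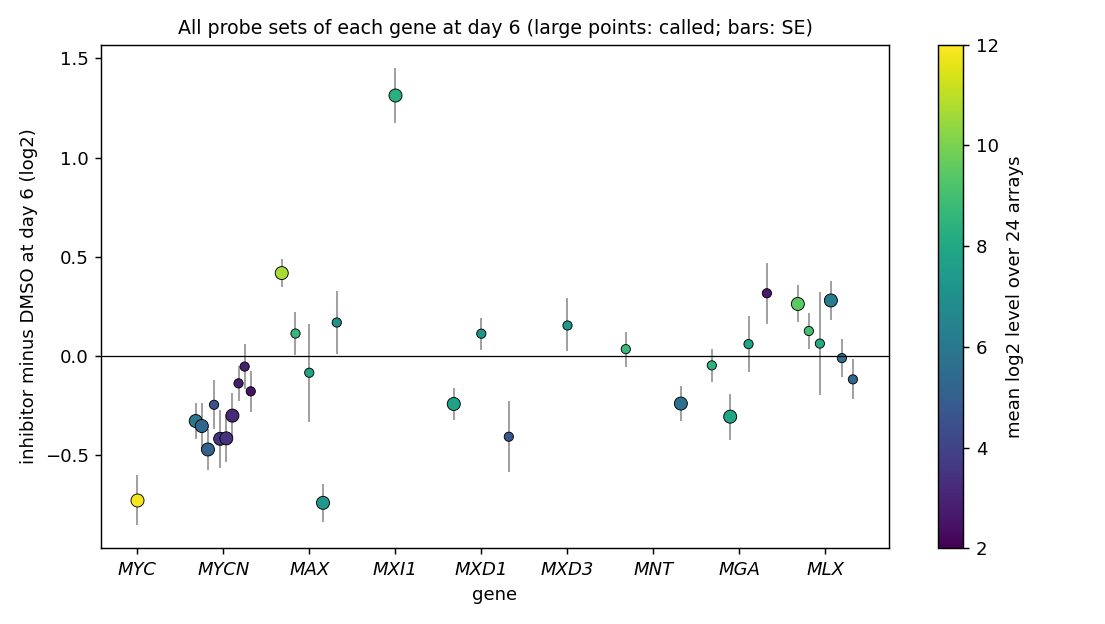
Inhibitor minus DMSO at day 6 (y axis, log2) for each of the 33 probe sets of the 9 measured genes (x axis), coloured by mean log2 level over the 24 arrays. Bars are standard errors of the fit and large points are called. All 10 MYCN probe sets lie below 0, and MAX has called probe sets on both sides of it.

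MXI1, a MAX partner that represses and so opposes MYC, moved furthest of the members and was called first. It has 1 probe set with a single symbol (202364_at). At day 1 its arrays read 7.56, 7.80 and 7.99 in DMSO and 7.84, 8.47 and 8.35 with the inhibitor, a difference of 0.44 ± 0.14 that was not called (adjusted p = 0.28). Replicate 1 was the lowest in both arms, and the arms overlapped. Without replicate 1 of the treated arm the day 1 difference was called (0.63, adjusted p = 0.037).

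At day 2 MXI1 read 7.84, 7.99 and 8.19 in DMSO and 8.51, 8.66 and 8.76 with the inhibitor. The treated arrays lay above all controls, a rise of 0.64 ± 0.14 (adjusted p = 0.0069). The day 2 call was lost without DMSO replicate 1 of that day (0.56, adjusted p = 0.052) and without all arrays numbered 2 (0.63, adjusted p = 0.17). At day 3 the arrays read 8.01, 7.99 and 8.26 against 8.84, 8.87 and 9.04, a rise of 0.83 ± 0.14 (adjusted p = 0.00018). At day 6 they read 8.06, 7.81 and 8.07 against 9.27, 9.22 and 9.39, a rise of 1.31 ± 0.14 (2.48-fold, adjusted p = 7.3e-08), with a wide gap between the arms.

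The MXI1 difference grew with time. The effect at day 6 exceeded that at day 1 by 0.87 ± 0.20 (adjusted p = 0.0017), and that at day 3 by 0.48, which was not called (adjusted p = 0.12). In the treated arm MXI1 was higher at day 6 than at day 1 by 1.07 (adjusted p = 1.6e-06), and in the control arm by 0.20, which was not called (adjusted p = 0.75). The treated groups were ordered 9.29, 8.92, 8.65 and 8.22 from day 6 back to day 1, and no array of a treated group overlapped those of the next. The 4 DMSO groups, at 8.09, 8.01, 7.98 and 7.78 (days 3, 2, 6 and 1), overlapped their neighbours in that order, and the treated arrays of day 1 overlapped them.

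MXD1, a further MAX-binding repressor, known from differentiating cells, went the opposite way. At day 6 it read 7.96, 7.68 and 7.88 in DMSO and 7.60, 7.50 and 7.71 with the inhibitor. The arms overlapped, since the highest treated array passed the lowest control array, and the fall was 0.24 ± 0.08 (adjusted p = 0.017). At days 2 and 3 its treated arrays lay below all controls, with differences of -0.23 and -0.20 that were not called (adjusted p = 0.11 and 0.091). The day 6 call was lost with only the 2 groups compared in the fit (-0.24, adjusted p = 0.093). It was also lost without DMSO replicate 1 (adjusted p = 0.099), DMSO replicate 3 (adjusted p = 0.057) or inhibitor replicate 2 (adjusted p = 0.086) of that day, and without all arrays numbered 1 (adjusted p = 0.19) or 3 (adjusted p = 0.056). Its other 2 probe sets gave 0.11 and -0.41 and were not called, and their mean with the brightest gave -0.18 (adjusted p = 0.082).

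MXD3, which is the family's member linked to proliferating cells, was not called at any day in the main fit. With the replicate number as a block, over all arrays or within each day, its day 3 difference was called (adjusted p = 0.0034 and 0.0096). Its differences were -0.01, 0.20, 0.30 and 0.16 at the 4 days, and the arms overlapped at each. At day 3 its arrays read 7.21, 7.42 and 7.50 in DMSO and 7.40, 7.77 and 7.88 with the inhibitor (adjusted p = 0.13). Replicate 1 was the lowest in both arms, and the difference was called without the treated replicate 1 of that day (0.45, adjusted p = 0.026) or without all arrays numbered 1 (0.36, adjusted p = 0.020).

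MNT, the broadly expressed MAX-binding repressor, read 8.82, 8.78 and 9.0 in DMSO at day 6 and 8.85, 8.86 and 9.0 with the inhibitor. The arms overlapped, with a difference of 0.03 (95% confidence interval -0.15 to 0.21, adjusted p = 0.76). Its second, dimmer probe set fell by 0.24 ± 0.09 (adjusted p over all probe sets = 0.034). In the treated arm MNT was 0.31 higher at day 6 than at day 1 (adjusted p = 0.0069), and in the control arm 0.22 higher, which was not called (adjusted p = 0.45). The first of these calls was lost with the mean of both probe sets (0.04, adjusted p = 0.65) and without the arrays numbered 1 (0.27, adjusted p = 0.10) or 3 (0.25, adjusted p = 0.055).

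MGA, a very large protein that carries a second DNA-binding domain of the T-box type, differed by -0.05 at day 6 (95% confidence interval -0.22 to 0.12, adjusted p = 0.66). Over all 24 arrays its brightest probe set stayed between 8.27 and 8.63. Of its 4 probe sets 1 was called at day 6, lower at -0.31 ± 0.12 (adjusted p over all probe sets = 0.044).

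MLX, the MAX-like protein, read 9.22, 9.30 and 9.37 in DMSO at day 6 and 9.49, 9.50 and 9.68 with the inhibitor. The treated arrays lay above the controls, with a difference of 0.26 ± 0.09 (adjusted p = 0.023). In the treated arm MLX at day 6 differed from day 1 by 0.05, which was not called (adjusted p = 0.69). The control arm differed by -0.22, which was also not called (adjusted p = 0.50). The effect at day 6 did not differ from that at day 1 past the threshold (0.27 ± 0.13, adjusted p = 0.14). Of its 6 probe sets 2 were called higher and the other 4 ran from -0.12 to 0.13. The call was lost with the mean of the 6 probe sets (0.10, adjusted p = 0.37). It was also lost without DMSO replicate 1 (0.22, adjusted p = 0.088) or inhibitor replicate 3 (0.20, adjusted p = 0.12) of day 6, and without all arrays numbered 1 (0.26, adjusted p = 0.14) or 2 (0.29, adjusted p = 0.085).

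Over time in the control arm no member was called between days 1 and 6 (2 higher and 1 lower at an unadjusted p under 0.05), where 0.288% of all genes were called in either direction. In the treated arm 5 members were called between days 1 and 6, where 41.0% of all genes were called in either direction. Of the 5, MXI1, MAX and MNT were higher at day 6, and MYC and MYCN lower. The MAX call was lost with the mean of its probe sets (0.19, adjusted p = 0.16) and the MYCN call without the arrays numbered 2 (-0.29, adjusted p = 0.066). MXD3 (0.32, adjusted p = 0.055) was called with array medians subtracted (adjusted p = 0.044), with array weights (adjusted p = 0.034), without the dimmest 40 percent of genes (adjusted p = 0.041) and without the arrays numbered 1 (0.41, adjusted p = 0.0037). Of the differences between the effects of days 6 and 1, those of MXI1 and MAX were called higher and that of MYC lower. Of those between days 6 and 3, that of MAX was called higher and that of MYC lower. These comparisons share their day 6 arrays. Members whose arrays did not overlap between the arms at day 6 numbered 3 above and 2 below, where 19.8% of all genes lay above and 32.3% below.

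**Figure D3:**
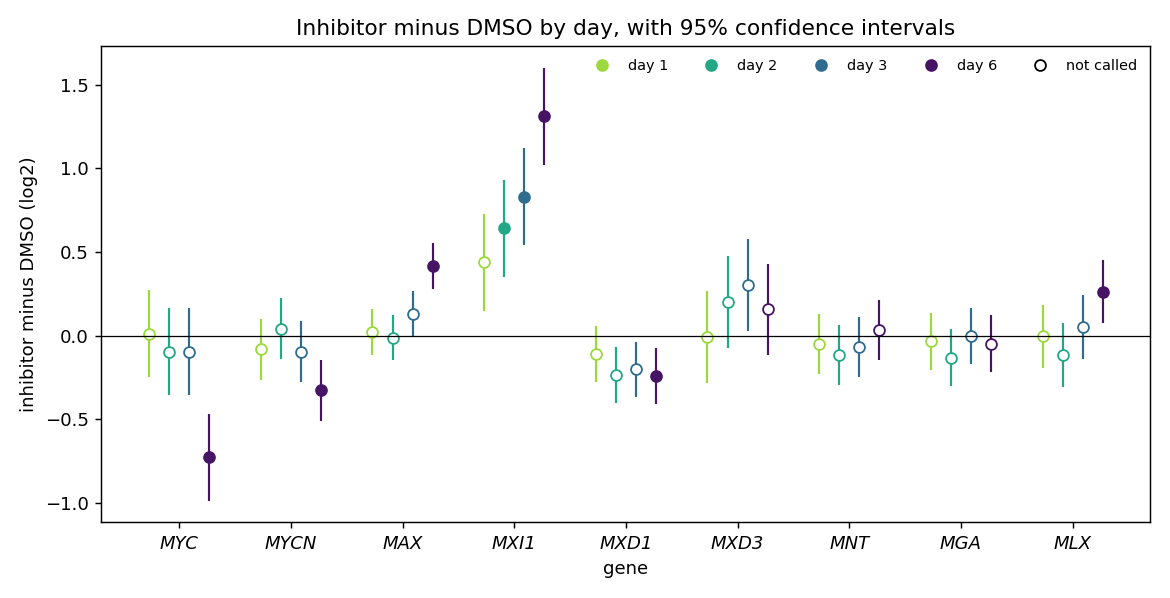
Inhibitor minus DMSO (y axis, log2) for the main probe set of each measured network gene (x axis) at days 1, 2, 3 and 6. Points are fitted differences from 3 arrays per group, bars 95% confidence intervals, and filled points are called. MXI1 climbs from 0.44 to 1.31, and MYC stays within 0.10 of 0 until it falls by 0.73 at day 6.

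The genes that MYC activates fell together, and some were called lower before the MYC transcript was. A list of many genes can gain a call sooner than 1 gene, and the order of the falls was not tested. A list of 75 such genes had 69 measured members. It was chosen with earlier results of these data known, so its fall is a description and no independent test of MYC activity. At day 1 none was called, nor did any pass an unadjusted p of 0.05. At day 2, 4 were lower, at day 3, 40 and at day 6, 64, where 0.824%, 7.65% and 26.9% of all genes were lower. None of the 69 was higher at any day, also at an unadjusted p of 0.05, at which 19, 55 and 64 were lower. By that measure 1796, 3065 and 6392 of all 19775 genes were lower at days 2, 3 and 6. The median of the list was -0.03, -0.13, -0.31 and -0.84 at the 4 days, against medians of all genes of -0.01 to -0.11. MYC itself differed by -0.10 at both day 2 and day 3. Its 95% confidence interval at day 3, -0.35 to 0.16, held the median of the list. At day 6 all 69 were below 0, and 25 were called and at least 2-fold lower. For 66 the treated arrays lay entirely below the controls, as they did for 32.3% of all genes. Of the 40 called lower at day 3, 39 were lower again at day 6.

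Most of the list is bright, with 49 of the 69 in the highest quintile of genes by mean signal (above 8.88). In that quintile the median difference of all genes at day 6 was -0.12 and 42.2% were called lower. The mean of the 69 genes was 10.16, 10.15 and 10.15 in the DMSO arrays of day 6 and 9.33, 9.27 and 9.30 in the treated arrays, a gap far wider than the spread within an arm. At day 3 the treated arrays averaged 9.80, 9.75 and 9.73 and the DMSO arrays 10.11, 10.12 and 10.10. At day 2 they averaged 9.999, 9.971 and 9.978 against 10.12, 10.13 and 10.14. The DMSO arm thus stayed between 10.10 and 10.16 throughout, while MYC in the treated arm was within 0.10 of its control until day 3. The list also holds many cell cycle and growth genes, which other regulators are known to control, and their part in the fall was not tested.

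The count at day 2 moved with the arrays and settings used. The genes were TCOF1, RRP12 and NOLC1, of ribosome production, and CDC25A, a phosphatase that drives entry into S phase (the first 3 named after their values were seen). CDC25A read 9.56, 9.60 and 9.44 in DMSO and 9.25, 9.08 and 9.01 with the inhibitor (-0.42 ± 0.10, adjusted p = 0.019). Without 1 array of day 2 the count was 0 to 2. It was 2 without DMSO replicate 1 or 3 or inhibitor replicate 1, 1 without inhibitor replicate 3, and 0 without replicate 2 of either arm. It was 1 with only the groups compared in the fit, 2 with array medians subtracted and 7 with array weights. With the replicate number as a block in the fit it was 10, and with that block within each day 12. At day 3 the count was 26 without inhibitor replicate 3 of that day, and 25, 14 and 19 without all arrays numbered 1, 2 and 3. At day 6 it stayed between 61 and 64 in all leave-outs.

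By role (a grouping made after the values were seen), the fall at day 6 reached every group. Of 25 genes for ribosome biogenesis and RNA polymerases I and III, 24 were lower (median -0.78). Among them were LYAR, a nucleolar protein (-1.32), and FBL, which methylates ribosomal RNA (-1.15). All 10 translation factors and mitochondrial proteins were lower (median -0.81), with EIF4E, the cap-binding protein, at -0.86. For nucleotide, folate and polyamine synthesis 13 of 15 were lower (median -1.05), led by CAD, which starts pyrimidine synthesis (-1.40 ± 0.09, adjusted p = 2.2e-11). All 8 glycolysis and nutrient uptake genes were lower (median -0.82), with the lactate dehydrogenase LDHA at -0.96. Of 11 cell cycle and other genes 9 were lower (median -0.999). At day 3 these groups had 15, 5, 9, 6 and 5 genes lower. The share of all genes called lower was 7.65% at day 3 and 26.9% at day 6.

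The furthest falls of the list at day 6 were those of CDC25A and MCM7. CDC25A read 9.51, 9.60 and 9.46 in DMSO and 7.58, 7.55 and 7.57 with the inhibitor (-1.96 ± 0.10, adjusted p = 2.2e-12). MCM7, a subunit of the replicative helicase whose promoter stretch is printed above, read 10.75, 10.84 and 10.93 against 9.23, 8.88 and 9.0 (-1.80 ± 0.08, adjusted p = 2.7e-13). CKS1B, a subunit of cyclin-dependent kinases, fell by 1.37 ± 0.07 (adjusted p = 1.0e-12). The other printed targets also fell, SLC19A1, the reduced folate carrier (-1.35), MTHFD1, an enzyme of folate metabolism (-1.35), and LYAR (-1.32). The 27 targets with an E-box in the window had a median of -0.92 at day 6 and the 30 without had -0.82. The difference between these medians was not tested. Of the 27, 26 were called lower, where 64 of all 69 measured targets were.

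The 5 targets that were not called at day 6 are named after their values were seen. They were CCND2 (-0.01), MTHFD2 (-0.10), ODC1 (-0.12), POLR3D (-0.13) and CUL1 (-0.19). ODC1, which makes polyamines and is a classical MYC target, and CUL1 had treated arrays entirely below their controls, as did 32.3% of all genes. CCND2 averaged 4.12 in DMSO at day 6, a dim signal.

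**Figure D4:**
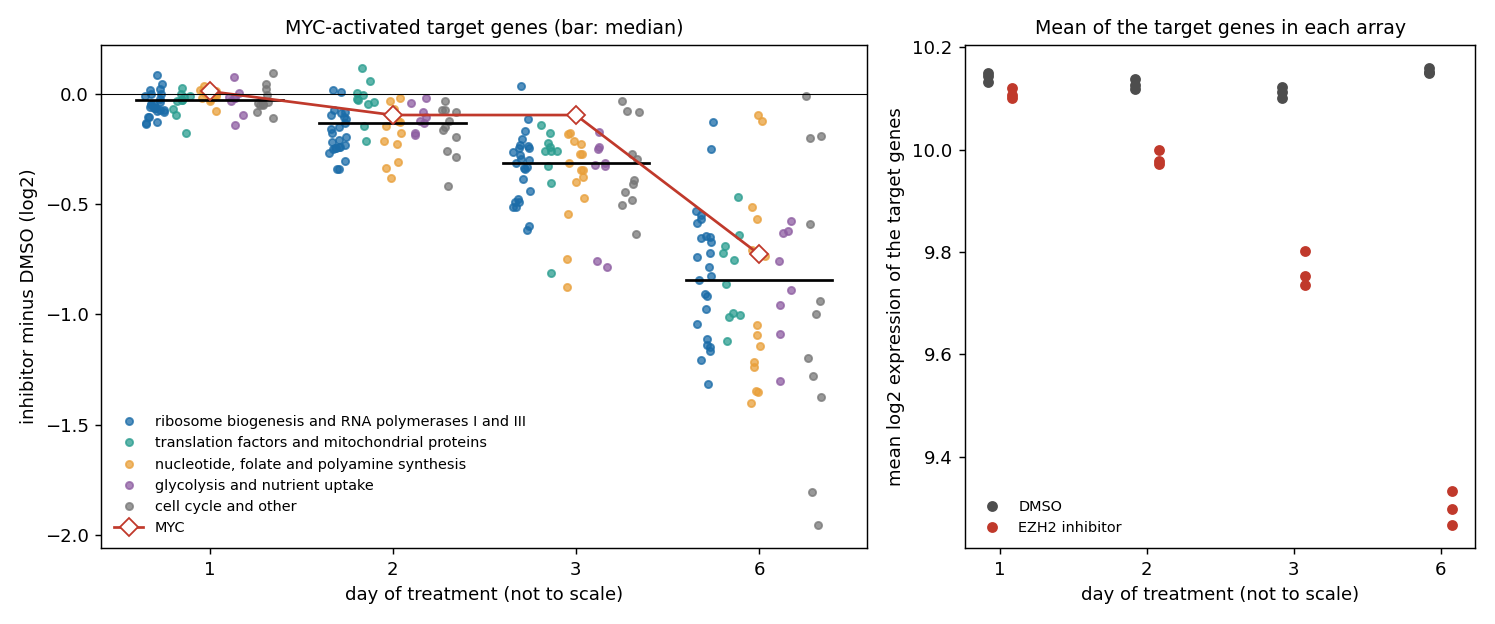
Left, inhibitor minus DMSO (y axis, log2) for the 69 measured MYC-activated target genes by day (x axis, days evenly spaced), coloured by role, with the median as a bar and MYC as open diamonds. Right, the mean log2 expression of the 69 genes in each array, which stays between 10.10 and 10.16 in DMSO and reaches 9.27 to 9.33 in the treated arrays of day 6.

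Genes that MYC is known to repress did not move 1 way. Of 10 measured, 4 were higher and 3 lower at day 6 (median 0.00), where 18.5% and 26.9% of all genes were. At days 2 and 3, 2 and 3 were higher and 0 and 1 lower. The shares of all genes at these days were 3.57% and 8.64% higher and 0.824% and 7.65% lower. At day 1 none of the 10 was called (1 higher and 1 lower at an unadjusted p under 0.05). GADD45A, a growth arrest gene, read 8.0, 8.08 and 8.18 in DMSO at day 6 and 11.91, 12.24 and 12.22 with the inhibitor, a rise of 4.03 ± 0.22 (adjusted p = 4.8e-12) after rises of 1.41 at day 2 and 2.25 at day 3. CCNG2, a cyclin of non-dividing cells, rose by 1.13 ± 0.09, NDRG1, a stress-response gene, by 0.76 ± 0.13 and CDKN1B, the CDK inhibitor p27, by 0.75 ± 0.14. CDKN1A, the CDK inhibitor p21, differed by 0.15 (adjusted p = 0.46). The 3 lower genes, NDRG2, PDGFRB and CDKN2B (-0.41, -0.37 and -0.25), had DMSO means of 6.11, 5.44 and 5.22. Without DMSO replicate 2 or 3 or inhibitor replicate 3 of day 6, 1 of these 3 was called.

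Among cofactors of MYC, 3 of 13 were higher and 7 lower at day 6 (median -0.24), against 18.5% and 26.9% of all genes. At days 2 and 3, 0 and 1 were higher and 1 and 4 lower. The shares of all genes at these days were 3.57% and 8.64% higher and 0.824% and 7.65% lower. No cofactor was called at day 1, also at an unadjusted p of 0.05. WDR5, a chromatin adaptor that MYC binds, read 8.96, 9.01 and 8.89 in DMSO and 7.60, 7.38 and 7.67 with the inhibitor at day 6. Its fall was 1.40 ± 0.09 (adjusted p = 3.3e-11), and it was already lower at day 2 (-0.32) and day 3 (-0.52). The ATPases RUVBL2 (-0.85 ± 0.07) and RUVBL1 (-0.59 ± 0.06) and ACTL6A (-0.60 ± 0.10), which sit with them in chromatin remodelling complexes, fell too. The 3 higher genes were EP400, KAT5 and CCNT1 (0.40, 0.39 and 0.24), and without the arrays numbered 2 none of them was called.

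The SIN3-HDAC corepressor, which MXI1, MXD1, MXD3 and MNT recruit, had 3 of 11 subunits higher and 5 lower at day 6 (median -0.18), against 18.5% and 26.9% of all genes. None was called before (2 lower at day 3 at an unadjusted p under 0.05). ARID4B (0.54 ± 0.12) and SIN3B (0.45 ± 0.09) were among the higher, and SAP30 (-0.49 ± 0.12) and the histone-binding RBBP7 (-0.43 ± 0.06) among the lower. The scaffold SIN3A was lower (-0.43) where SIN3B was higher. Without the arrays numbered 2, 2 of the 5 were called lower.

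PRC1.6, the complex of MGA, had 2 of 8 subunits higher and 6 lower at day 6 (median -0.42), against 18.5% and 26.9% of all genes. PCGF6, the subunit that defines the complex, fell by 0.81 ± 0.12 (adjusted p = 1.0e-05) and L3MBTL2 by 0.55 ± 0.07. The related subunits RYBP and YAF2, which take the same place in Polycomb complexes, went opposite ways. RYBP read 8.22, 8.27 and 8.21 in DMSO at day 1 and 8.87, 8.85 and 8.58 with the inhibitor, a rise of 0.54 ± 0.09 (adjusted p = 0.0047), and at day 6 the rise was 0.72 ± 0.09 (adjusted p = 7.2e-07). YAF2 read 8.35, 8.49 and 8.43 in DMSO at day 6 and 7.62, 7.79 and 7.58 with the inhibitor, a fall of 0.76 ± 0.08 (adjusted p = 5.8e-08). RYBP was the single member of this list called at days 1 and 2, and at day 3 YAF2 and PCGF6 were lower beside it. Of all genes 0.475%, 3.57% and 8.64% were higher at days 1, 2 and 3, and 7.65% were lower at day 3. The second higher subunit at day 6 was RING1 (0.17, adjusted p = 0.044), and in 11 of the 18 alternatives 1 subunit, not 2, was higher.

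MONDO-MLX targets gave 1 higher gene of 2 at day 6, where 18.5% of all genes were higher. TXNIP, which restrains glucose uptake, read 11.11, 11.09 and 11.12 in DMSO and 12.33, 12.18 and 12.13 with the inhibitor, a rise of 1.11 ± 0.12 (adjusted p = 6.2e-08) after 0.45 at day 3. ARRDC4, whose promoter stretch is printed above, was dim (3.52 in DMSO at day 6) and differed by -0.17 (adjusted p = 0.11). The other family members, MYCL, MLXIP and MLXIPL, gave no call at any day. At an unadjusted p under 0.05, 1 was lower at day 2, 2 at day 3 and 0 at day 6, when they differed by -0.13, -0.10 and -0.19.

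Genes that control the stability of the MYC protein had 3 of 12 higher and 4 lower at day 6 (median 0.04), not far from the 18.5% and 26.9% of all genes. FBXW7, the ubiquitin ligase subunit that targets MYC for degradation, read 8.28, 8.28 and 8.36 in DMSO and 9.23, 9.20 and 9.16 with the inhibitor, a rise of 0.89 ± 0.06 (adjusted p = 7.3e-11). It was already higher at days 2 and 3, by 0.35 and 0.42. SKP2, a ligase subunit that also acts on MYC (-1.23 ± 0.13), AURKA, a mitotic kinase that stabilises MYCN (-1.12 ± 0.09), and CIP2A, which protects MYC from dephosphorylation (-1.08 ± 0.12), were lower. At day 1 none was called (1 higher at an unadjusted p under 0.05). At day 2, 1 gene of the list was higher, and at day 3, 1 was higher and 1 lower. Of all genes 3.57% were higher at day 2, and 8.64% were higher and 7.65% lower at day 3. Protein levels were not measured.

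Of 8 regulators of MYC transcription 1 was higher and 3 lower at day 6 (median -0.24), not far from the 18.5% and 26.9% of all genes. FUBP1 was the single one called before, lower at day 3, where 7.65% of all genes were lower. In the leave-outs 2 to 5 of the 8 were called lower at day 6, 5 without inhibitor replicate 1 of that day. FUBP1, which binds an element upstream of MYC, fell by 0.72 ± 0.11 (adjusted p = 8.4e-06). CTCF, an architectural protein (-0.30 ± 0.07), and CNBP, a nucleic acid-binding protein (-0.27 ± 0.06), also fell. PRDM1, a repressor of MYC in plasma cells, was higher by 0.26 ± 0.10 (adjusted p = 0.043), with overlapping arms. That call was lost with only the groups compared in the fit, and without DMSO replicate 1 or inhibitor replicate 2 or 3 of day 6, or all arrays of any 1 number. BCL6, which represses MYC in germinal centre cells, differed by 0.13 (adjusted p = 0.084).

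The genes whose values followed MYC most closely over the 24 arrays, among 9664 genes above the median level, were TMEM135 (Pearson's r = 0.94), RCC2 (0.92), MTFR1 (0.91), DAZAP1 (0.91) and SLC6A6 (0.88). The most opposite were SSR4 (-0.94), NGRN (-0.90) and DCTN3 (-0.90). For MXI1 the most alike were PPM1K, KLHL29, NEDD4L, GGACT and ADD3 (0.97 each), and the most opposite TUBA4A (-0.96), ANKRD39 (-0.95) and SYNGR1 (-0.95). The points share a cell line, days and treatment groups, so these are descriptions with no test. The MYC-like genes had their lowest differences at day 6 (SLC6A6 -1.25, RCC2 -0.56). Those like MXI1 had differences above 0 at day 1, from 0.32 (GGACT) to 1.07 (KLHL29), with overlapping arms for PPM1K and GGACT. ADD3 differed by 0.72 at day 1 and by 2.84 at day 6. MYC and MXI1 themselves gave r = -0.51 over the 24 arrays and 0.13 after group means were removed.

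Markers checked the labelled cell type. The 7 measured B cell markers of 8 averaged 10.35 to 10.74 per DMSO array and 10.38 to 11.07 per treated array. The 6 myeloid markers averaged 4.23 to 4.43 and 4.03 to 4.36, and the 8 stromal, endothelial and epithelial markers 4.48 to 4.59 and 4.33 to 4.57. The 8 T and NK cell markers averaged 6.28 to 6.45 in DMSO and 6.00 to 6.42 with the inhibitor. Over the 24 arrays CD3G averaged 10.95, CD247 9.80, CD3D 7.12, CD4 5.61, CD3E 4.84, CD8A 4.18, KLRD1 3.93 and NKG7 3.78. CD247 differed by -1.25 and CD3D by -0.58 at day 6, and the B cell marker CD79B by 1.096, so marker genes moved with the treatment as well, and their part in the network's differences was not tested.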

How the data were processed

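Each of the 24 samples is total RNA on an Affymetrix U133 Plus 2 array. The authors deposited log2 expression values of 54613 probe sets. They used RMA and R 2.10.1 (from the submitters' processing notes). The log base is not given in the sources used here, and the range of 1.72 to 14.33 is that of log2 values. RMA gives the arrays 1 distribution and no detection calls.

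Of 42892 probe sets listed with a gene, 41091 had a single symbol, and the brightest of each gene gave 19775 genes. Differences were fitted with limma 3.58.1 in R 4.3.3 (1 coefficient per group, eBayes, 16 residual and 5.22 prior degrees of freedom), with Benjamini-Hochberg adjustment of p across all genes. A separate fit covered all probe sets. The fit was tested on simulated data. With 3 arrays a group, the smallest p of an exact permutation test would be 0.1. Alternatives covered the probe set, scaling, a filter leaving out the dimmest 40 percent of genes, replicate blocks, array weights, the variance prior and left-out arrays.

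The members and lists were chosen with earlier results of these data known. Named are all members, up to 4 called genes of each list with the largest differences at day 6, EZH2, and the genes most and least correlated with MYC and MXI1. A gene outside this rule is named to account for a count of 5 or fewer, for a printed sequence or as an example of a role, after its values were seen.

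List members not matched to a single-symbol probe set (among them NOP56, DKC1, PPAN, BOP1, GNL3, EIF4A1, ARID4A and RNF2) are not analysed here.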

Additional observations from a re-analysis of the deposited data

Results flagged for a closer look

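The 3 genes MYC, MXI1 and MAX had an inhibitor effect that differed between the first and the last day in a test of that difference. For MYC the effect at day 6 minus that at day 1 was -0.74 ± 0.18 (adjusted p = 0.0028). For MXI1 it was 0.87 ± 0.20 (adjusted p = 0.0017). For MAX, in its brightest probe set, it was 0.40 ± 0.09 (adjusted p = 0.0024). With the mean of the 5 MAX probe sets it was 0.02 (adjusted p = 0.93), and without the arrays numbered 3 it was 0.37 (adjusted p = 0.063). Groups of 3 arrays are too small for the test of single outlying arrays.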

How the results depend on the processing

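For the 63 differences of single members, 927 refits under 36 settings changed the call or its direction in 45, and 45 of the 63 differences kept both throughout. A change of sign in a value called in neither fit was not counted. The MAX difference at day 6 turned to -0.025 with the mean of probe sets, the single reversal. With the replicate block, over all arrays or within each day, 1 member was higher at day 1 and 2 at day 3. The added calls were MXI1 (adjusted p = 0.042 and 0.0095) and MXD3 (adjusted p = 0.0034 and 0.0096). The effect of MLX at day 6 minus day 1 was called with both blocks (0.27, adjusted p = 0.020 and 0.019), and the rise of MXD3 within the treated arm with the block over all arrays (adjusted p = 0.00077). Leaving out arrays gave 0 to 1 members higher at days 1 and 2 and 1 to 2 at day 3. At day 6, 1 member was higher with the mean of probe sets. At day 3, 1 was lower with array weights, with quantile normalization repeated and with the block within each day. MYC-activated genes lower at day 2 numbered 2 with array medians subtracted, 7 with array weights, 1 with only the groups compared, 10 with the replicate block and 12 with the block within each day, and 0 to 2 without single arrays or replicate numbers. At day 3 they numbered 22 with only the groups compared and 14 to 39 in the leave-outs. The causes were not tested. Treated and control arrays of the same day and number correlated at over 0.1 (after removal of group means) in 11 of 12 pairs, the exception being number 2 of day 2 (0.04). For 21 of 24 arrays the mean correlation with arrays of other groups was highest for those of the same number. Both values are a hint from the data that numbers were handled together. The labels do not say so, and a pairing was taken only if every pair exceeded 0.1, so the fit without a block was kept. RMA values give no depth and no detection call.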
